A study of Mus musculus with 11 samples.

Results

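Low-frequency variants of the KPP-eGFP exome outside 3 chromosome segments numbered 163, in 151 genes, of 621 variants in 304 genes in the whole call table. The clonal KPP-eGFP cells came from a primary pancreatic ductal adenocarcinoma of a genetically engineered mouse and express the fluorescent reporter eGFP from a PiggyBac vector. Its exome was read in 3 libraries of cultured cells before implantation. It was read again in 5 tumours of STAMP arrays, which are sets of small tumours grown side by side in the skin of the mouse ear. The tumours were taken 3 weeks after implantation, and 2 were immune-inflamed (T cells inside the tumour), 2 immune-excluded (T cells held at its edge) and 1 immune-desert (few T cells). The comparison asks whether tumours that differ in immune phenotype also differ in the variants of the implanted line. All 8 libraries share the line's reporter and its founder mutations, and the matched normal was spleen of the wild-type host strain. The variants called are therefore differences between the line and the host strain. The labels do not say whether libraries came from separate cultures or mice, and the study's legend describes pooled tumour biopsies, so p-values measure only the spread between these libraries.

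The variants were chosen by their culture frequencies. A gene entered when every one of its variants had a mean variant allele frequency (the fraction of reads that carry the changed base) under 0.25 over the culture libraries that called it. Chromosome 4 from 86.5 to 103.4 Mb, chromosome 6 from 145 Mb, chromosome 8 from 77 to 93 Mb, Fbxo22 and Gm10800 were left out. Of the 209 variants that remained, 163 (78.0%) fell under the limit and 46 did not. The limit lay in a gap. The members nearest to it were 4932438A13Rik S2315R at 0.179, Mgam L421H at 0.170, Zfyve16 S102Y at 0.162, Gm13023 I370F at 0.159 and Kcna5 I484S at 0.159. The first variants beyond it were Olfr1111 S151T at 0.250, Wnt11 L48V at 0.294, Gm3072 E56fs at 0.332, Magel2 P614Q at 0.333 and Ptprz1 Q12R at 0.336. Culture frequencies below are a description for this reason, with no test.

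A mutation on a single chromosome copy of a diploid founder cell gives a variant allele frequency near the middle of the range, since every descendant carries it. A lower frequency in a cell line can mean that a part of the cells carries the change, or that reads from elsewhere in the genome were placed at the site. These are not the only possible sources, and the source of a call was not tested here. A tumour biopsy also holds host cells, whose DNA lowers the frequency of every variant of the line. In a single tumour, more host DNA and fewer tumour cells with the variant cannot be told apart. Calls in tumours were restricted by the authors to variants found in the line, so a variant that arose in a tumour is not in these data.

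Of the 163 variants, 7 were called in at least 2 tumours. Their surroundings in the GRCm38 genome are shown first because the recurrence described below rests on them. Each run is the plus strand, 5′ to 3′, and the capital marks the changed base at position 11, counted from 1 at the left end.
Sfi1 P1003S, chr11:3134644-3134664: taccactctgGggacctctga
Rpl22 K16R, chr4:152327505-152327525: aaaaaaaagaAgcaggttttg
Robo1 Y1034H, chr16:73004579-73004599: gcccactcccTatgccaccac
Snx9 I305V, chr17:5908653-5908673: tgggtctgccAttccgatccc
Muc4 H600R, chr16:32751912-32751932: gccaccacccAtgaccaaatt
Tmcc1 R683G, chr6:116022100-116022120: gagaagagccGgtccacgtag
Gm10801 F44L, chr2:98662358-98662378: actggacattTctaaattttc
The substitutions were G11A in Sfi1, A11G in Rpl22, T11C in Robo1, A11G in Snx9, A11G in Muc4, G11C in Tmcc1 and T11G in Gm10801. All 7 lie in coding exons. The Rpl22 site follows a run of A bases, and the Muc4 change has an identifier of a known mouse polymorphism.

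Robo1, Rpl22 and Snx9 were called in all 3 culture libraries and in several tumours. Robo1 is a receptor for the guidance molecules of the Slit family. Its Y1034H variant had frequencies of 0.118, 0.10 and 0.0707 in culture 1, 2 and 3. In tumours it was at 0.0351 in inflamed 1, 0.0881 in excluded 1, 0.0482 in excluded 2 and 0.0932 in desert 1, and it was not called in inflamed 2. Rpl22 encodes a protein of the large ribosomal subunit. Its K16R variant was at 0.236, 0.0833 and 0.0982 in culture, and culture 1 stood above the other 2. In tumours Rpl22 K16R was at 0.0476 in inflamed 1, 0.0741 in excluded 1, 0.0420 in excluded 2 and 0.0794 in desert 1. Snx9 is a sorting nexin of endocytosis. Its I305V variant was at 0.102, 0.105 and 0.0936 in culture, 0.0332 in inflamed 1, 0.0507 in excluded 1 and 0.0633 in desert 1. In these 3 genes the called tumour values were higher in excluded 1 and desert 1 than in the other tumours. Those 2 tumours also had the highest frequencies relative to culture over the variants called in all 8 libraries. The part of this in the values above was not tested. Of the 258 variants called in all 8 libraries, only 1 is among the 163. For the 258 variants with a call in every one of the 8 libraries, the median ratio of tumour to mean culture frequency was 0.246 in inflamed 1, 0.295 in inflamed 2, 0.477 in excluded 1, 0.278 in excluded 2 and 0.627 in desert 1. Snx9 had ratios of 0.332 in inflamed 1, 0.507 in excluded 1 and 0.632 in desert 1, each at or above those medians. Rpl22 had 0.342 in inflamed 1, 0.532 in excluded 1 and 0.302 in excluded 2, above the medians, and 0.570 in desert 1, below it. Robo1 had 0.365, 0.916, 0.501 and 0.969 in inflamed 1, excluded 1, excluded 2 and desert 1, all above them. In inflamed 1 the culture means of Snx9 and Robo1 times the median ratio were 0.0246 and 0.0236. The lowest frequency called in that tumour was 0.0296, so a call of either could only lie above the median.

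Sfi1, Muc4 and Tmcc1 had another pattern. Sfi1 is a centrin-binding protein of centrioles, and its P1003S variant was the only one of the 163 called in all 8 libraries. It was at 0.0494, 0.0437 and 0.0537 in culture, at 0.0431 in inflamed 1, 0.0421 in inflamed 2, 0.0429 in excluded 1, 0.0402 in excluded 2 and 0.0440 in desert 1. Only the desert 1 value lay above the lowest culture value, and the ratios to the culture mean were 0.821 to 0.899 over the 5 tumours. The fraction in spleen reached 0.0182, the highest of the 163 variants, and the 151 bases around the site match 1 other place in the genome at 95.4% identity. Muc4, a membrane mucin, carried H600R at 0.0593 in culture 1 alone, and at 0.0512 in inflamed 1, 0.0388 in inflamed 2 and 0.0511 in excluded 2. Tmcc1 encodes a membrane protein of the endoplasmic reticulum. Its R683G variant was at 0.0456 in culture 3 alone, and at 0.0636 in inflamed 1, 0.0680 in excluded 1 and 0.0743 in excluded 2, above the culture value in each. Neither Muc4 H600R nor Tmcc1 R683G has a similar place elsewhere by the search described below, but the 31 reference bases around Muc4 H600R occur 2 times in the genome. The spleen fraction was 0.00752 for Muc4 H600R and 0 for Tmcc1 R683G, and it was above 0 in 4 of the 7 recurrent variants (Sfi1, Snx9, Muc4 and Gm10801). The gene model Gm10801 had F44L at 0.0368 in culture 3, 0.0603 in inflamed 1 and 0.0387 in excluded 1, and its surroundings match 26 other places.

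**Figure D1:**
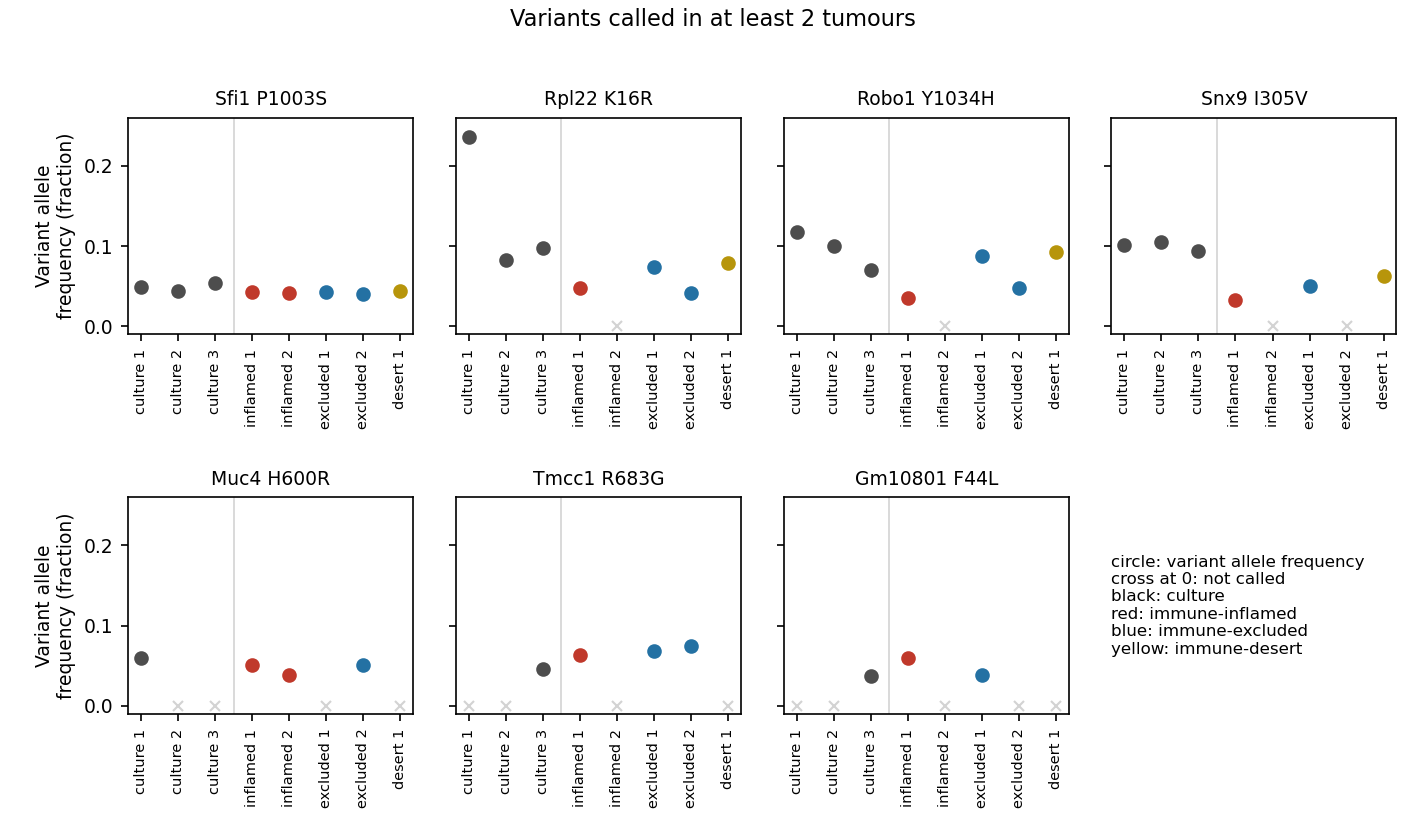
Variant allele frequency (fraction of reads, vertical axis) of the 7 variants called in at least 2 tumours, in each of the 8 libraries (horizontal axis); crosses at 0 mark libraries without a call. Snx9 was lower in tumours than in culture wherever it was called, from 0.0332 to 0.0633 against 0.0936 to 0.105, while Sfi1 lay between 0.0402 and 0.0537 in every library.

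The other 23 variants found in a tumour were called in 1 tumour each. The immune-desert tumour alone had 11 of them, and it also had the most calls over all variants, 399 of 621. A missing call need not mean absence. For variants called in 1 phenotype only, the study inspected the reads of the other samples by eye and found all but 1 there. It does not say whether these 23 were among them. Kcna5 I484S, in a voltage-gated potassium channel, was at 0.155, 0.144 and 0.177 in culture and 0.0629 in desert 1. Olfr742 H135Q, in an olfactory receptor, was at 0.127, 0.147 and 0.110 in culture and 0.0257 in desert 1. The variant of P2rx6, an ATP-gated ion channel, R244H, was at 0.0411, 0.0481 and 0.0592 in culture and 0.0282 in desert 1. These 3 tumour values were below every culture value of the same variant. Cfap45 V490M, Olfr1297 F178C, Olfr251 N178T, Acaca P2038L, Adamtsl1 N574S, Prss40 V104L, a splice-region variant of Gm18342 and Rps2-ps6 A82fs were the other 8 in desert 1. Rps2-ps6 A82fs was the highest member call of any tumour, at 0.136 against 0.115 in culture 3, and lies in a pseudogene with 46 similar places. Excluded 2 alone had Zswim3 M207I (0.0328 against a culture mean of 0.136), Psg21 S124G (0.0248 against 0.135), Lrp2 K3815M, Rp1l1 R732G, AW822073 D132N and Gm4950 R203L. Excluded 1 alone had Gm21738 S144A, inflamed 2 alone had Psg28 K193T, and inflamed 1 alone had Gm21738 V145M, Gm10801 H41D and R68H, and Gm10717 I43M.

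In all, 30 of 163 variants (18.4%, Wilson 95% interval 13.2 to 25.1) in 27 genes were called in at least 1 tumour. The share was 11.7% without desert 1 and 10.7% without variants that have a similar place elsewhere in the genome. The 46 variants outside the segments at or above the limit were called in a tumour in 43 cases (93.5%). Over all 621 variants, calls numbered 310 in inflamed 1, 319 in inflamed 2, 361 in excluded 1, 323 in excluded 2 and 399 in desert 1. Called variants of the 163 numbered 11 in inflamed 1, 3 in inflamed 2, 7 in excluded 1, 11 in excluded 2 and 15 in desert 1. Shares of the 163 therefore ran from 1.84% in inflamed 2 to 9.20% in desert 1, and the immune-inflamed and immune-excluded tumours overlapped. The mean share was 4.29% in the immune-inflamed and 5.52% in the immune-excluded tumours, a difference of -1.23 percentage points (exact permutation test over tumours, two-sided p = 1.0; the smallest p that 6 splits allow is 0.333). Tumours of the same phenotype shared calls with a mean Jaccard index (shared calls over calls in either tumour) of 0.226, against 0.208 in the other pairs. The difference of 0.0180 had p = 0.40 (exact permutation test, one-sided, 15 splits), and its sign turned without excluded 2 (-0.0481), without desert 1 (-0.0418) or without culture 1 (-0.0250). The pair with the highest index was inflamed 1 and excluded 1, of different phenotypes, which shared 6 variants (54.5% of the calls of the first and 85.7% of the second). The titles of these 2 tumours share a first number, whose meaning the labels do not give, and the permutation took no account of it. The titles of inflamed 2, excluded 2 and desert 1 share another first number. Pairs among them had lower indices, 0.167, 0.0588 and 0.130, against 0.111 to 0.294 in pairs with different first numbers.

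**Figure D2:**
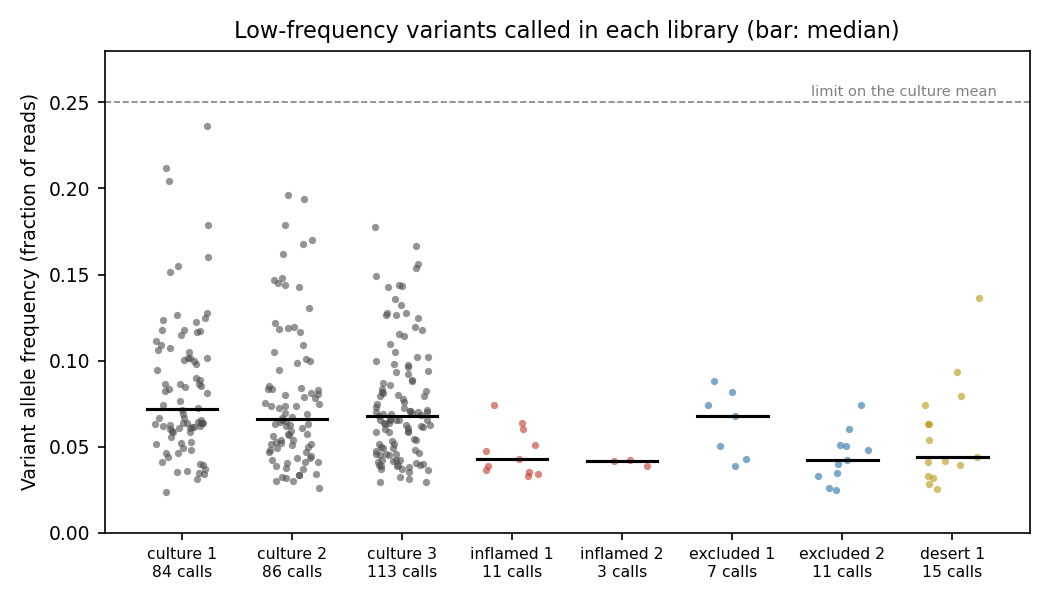
Variant allele frequency (fraction of reads, vertical axis) of every call of a low-frequency variant in each library (horizontal axis, with the number of calls); bars are medians and the dashed line is the limit that the culture mean had to stay under. The culture libraries had 84 to 113 calls with medians of 0.0661 to 0.0719, and the tumours 3 to 15.

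Frequencies were compared between phenotypes with limma over the 258 variants called in all 5 tumours, a rule that Sfi1 P1003S alone of the 163 met. Each tumour was first divided by its median ratio to culture. Without inflamed 2, 3 of the 163 variants entered the fit, among 269 tested, but a single immune-inflamed tumour then remained. In the main fit of all 5 tumours, scaled Sfi1 was at 0.175 in inflamed 1, 0.142 in inflamed 2, 0.0901 in excluded 1, 0.145 in excluded 2 and 0.0701 in desert 1. The immune-excluded values lay on either side of inflamed 2, so these groups overlapped, and desert 1 was the lowest. The scaled difference between immune-inflamed and immune-excluded tumours was 0.0415 ± 0.0257 (SE; limma, adjusted p = 0.817), and without scaling it was 0.00103. The scaled value of desert 1, a single tumour, minus that of the other phenotypes was -0.0680 ± 0.0288 (SE; limma, adjusted p = 0.986), which did not pass the threshold. Over all variants limma called 0 of 258 (0%) in each comparison, with 10 at an unadjusted p under 0.05 in each. Without scaling, the Sfi1 difference for desert 1 turned to 0.00191 (adjusted p = 0.922). The unscaled Sfi1 values spanned 0.0402 to 0.0440 over the tumours, so both scaled differences follow the divisors.

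Culture frequencies and tumour calls were also set side by side, as a description with no test, since the culture means chose the variants. Each mean was taken over the libraries that made a call, 1 library for 84 of the 163, and such a mean is higher than one that counts missing calls as low values. When each culture mean was multiplied by the tumour's median ratio, 141 of the 163 products lay above the lowest frequency called in desert 1 (0.0257), and 15 of these variants were called there. A stricter mark, the frequency that 5% of the tumour's calls fall below (0.0481), left 63 variants, of which 9 were called. In excluded 1, 22 products passed the same mark (0.0562) and 1 of these variants was called. The other tumours had few products above their marks, 2 in inflamed 1, 2 in inflamed 2 and 7 in excluded 2, and none of these variants was called there. Some calls were of variants whose product lay at or below the lowest frequency called in that tumour. These were 10 of 11 calls in inflamed 1, 3 of 3 in inflamed 2, 4 of 7 in excluded 1 and 7 of 11 in excluded 2. In desert 1 they were 0 of 15. Such calls can only have a ratio at or above the median ratio of their tumour. By comparison, of the variants called in another culture library, culture 1 called 42.3%, culture 2 45.0% and culture 3 60.9%. Of the 47 member calls in tumours, 36 had a ratio to culture above the median ratio of their tumour and 8 were above the culture mean itself. A variant near the lowest frequency of a library is called only where its reads exceed that limit. For calls with a product above the lowest frequency called, the part of this in the ratios was not tested.

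**Figure D3:**
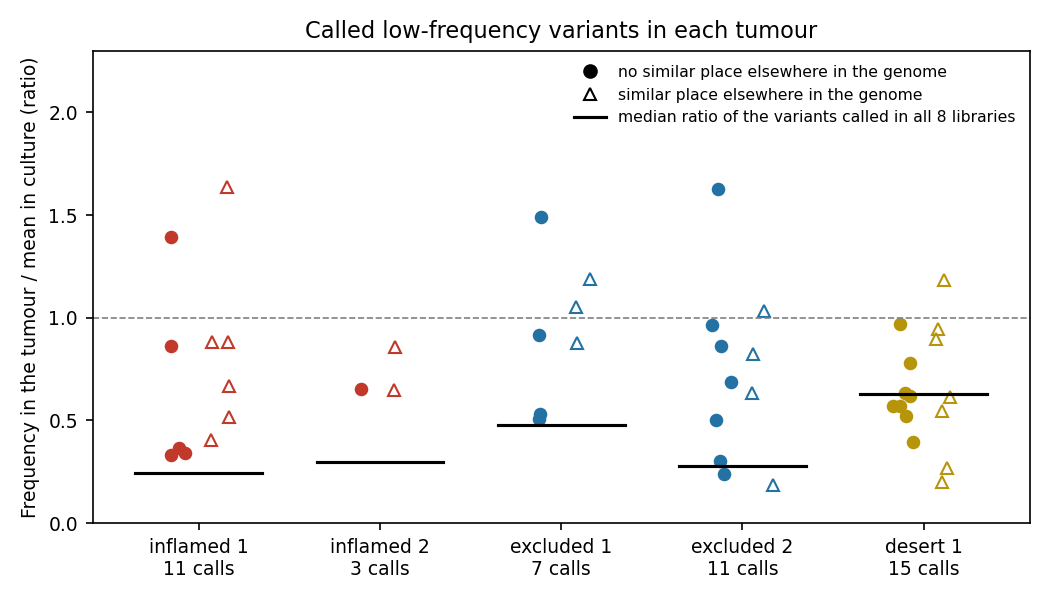
Ratio of the frequency in a tumour to the mean frequency in culture (vertical axis) for each low-frequency variant called in that tumour (horizontal axis); open triangles have a similar place elsewhere in the genome, bars are the median ratio of the 258 variants called in all 8 libraries, and the dashed line is equality with culture. Most calls, 36 of 47, lay above the bar of their tumour, and 8 lay above equality. Where the culture mean times the bar is at or below the tumour's lowest call, a call can only lie at or above the bar. This held for 10 of 11 calls in inflamed 1 and 0 of 15 in desert 1.

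In culture, 84 of the 163 variants (51.5%) were called in 1 library alone, 38 in 2 and 41 (25.2%) in all 3. Alone in its library were 26 variants in culture 1, 23 in culture 2 and 35 in culture 3. Culture 3 shared 16 variants with culture 1 only and 21 with culture 2 only, whereas culture 1 and culture 2 shared 1 that culture 3 lacked. Apart from the library name, the titles of culture 2 and culture 3 differ only by a final letter, whose meaning the labels do not give. SDs over culture libraries are therefore not known to be over separate cultures. Culture 3 had the most calls, 113, against 84 and 86. The medians of the mean frequency were 0.0645, 0.0677 and 0.0722 for variants called in 1, 2 and 3 libraries. Among the 41 called in all 3, the SD over libraries had a median of 0.0167 and ran from 0.00223 to 0.0842. Across the variants called in both of a pair of culture libraries (42 to 62 of them, which share those libraries), Pearson's r ran from 0.576 to 0.625. A tumour call was made for 17.9%, 15.8% and 22.0% of the variants called in 1, 2 and 3 culture libraries. The intervals of these shares overlapped (11.1 to 27.4, 7.44 to 30.4 and 12 to 36.7).

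The highest of the variants called in all 3 culture libraries were Mgam L421H, in an intestinal enzyme that splits starch products, and Zfyve16 S102Y, in an endosomal protein. Mgam was at 0.212, 0.194 and 0.105 and Zfyve16 at 0.204, 0.117 and 0.167 in culture 1, 2 and 3, and neither was called in a tumour. Next came Kcna5, then Lmtk2 Q944H (mean 0.143 ± 0.0277, SD, n = 3), Rpl22 K16R (0.139 ± 0.0842), Zswim3 M207I (0.136 ± 0.0167), Olfr742 H135Q (0.128 ± 0.0186), Gp2 L383V (0.118 ± 0.0381), Ndn M1? (0.115 ± 0.00711) and Olfr118 E10D (0.114 ± 0.0145). The lowest were Sspo T3602A (0.0317 ± 0.00223), Hmcn2 V876G (0.0374), Mark2 M693I (0.0435), Rdh1 R278H (0.0457) and Sfi1. Of the 11 called in all 3 libraries with a mean of at least 0.10, 5 were called in a tumour.

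The cumulative number of low-frequency variants against the inverse of the frequency is a plot used to compare a cell population with one whose subclones all grow at the same rate. Between 0.10 and 0.25 each culture library had 21 to 27 of the 163 variants. A straight line through the upper limit (R squared taken about 0) gave values of 0.967, 0.988 and 0.956, with a mean of 0.970 ± 0.0161 (SD, n = 3), and slopes of 3.59, 3.31 and 3.44 variants per unit of inverse frequency. These are descriptions of the chosen variants, and cumulative counts rise by construction.

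Single-base changes made up 158 of the 163 variants, and they are named here from the pyrimidine of the base pair. Changes of T to G led with 50 (31.6%, Wilson 95% interval 24.9 to 39.3), followed by 39 T to C (24.7%), 22 C to T (13.9%, 9.38 to 20.2), 20 T to A (12.7%), 19 C to G (12%) and 8 C to A (5.06%, 2.59 to 9.67). The other variants outside the segments had T to G in 13 of 44 (29.5%, 18.2 to 44.2), C to T in 22.7%, C to A in 18.2% and T to C in 2 (4.55%). In the segments T to G was 8.70% of 368 (6.23 to 12) and C to T 33.7%. The intervals of T to G overlapped on both sides of the frequency limit, and both lay above that of the segments. They treat the variants of a single cell line as independent, and the sets were not tested against each other. Within the chosen variants T to G was 25.6%, 32.1% and 35.1% in culture 1, 2 and 3, and 9 of the 29 single-base variants called in a tumour.

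**Figure D4:**
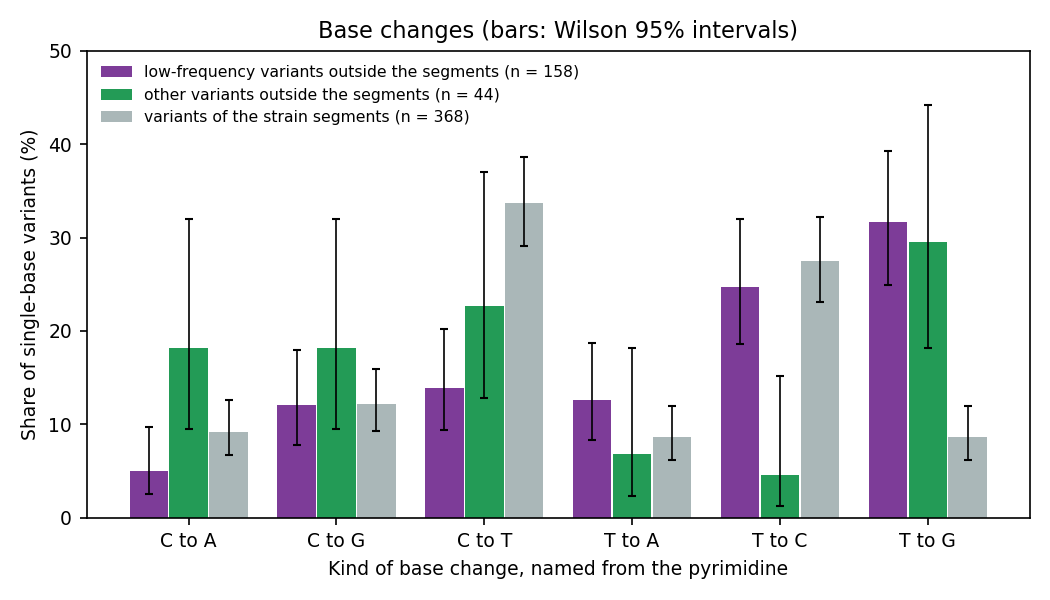
Share of single-base variants (%, vertical axis) by kind of base change (horizontal axis) for the 158 low-frequency variants, the 44 other variants outside the segments and the 368 variants of the segments; error bars are Wilson 95% intervals over variants. T to G was 31.6%, 29.5% and 8.70%, and C to T 13.9%, 22.7% and 33.7%.

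The bases beside the T to G changes were unequal in number. Of the 50, 20 (Wilson 95% interval 27.6 to 53.8%) had the trinucleotide CTT around the changed T, while CTT makes up 8.27% of the T positions of mouse coding exons. The other variants outside the segments had 6 of 13 T to G changes at CTT, and the segments 3 of 32 (9.38%, 3.24 to 24.2). C to G changes had the trinucleotide GCC in 11 of 19 (57.9%, 36.3 to 76.9), against 7.45% of C positions in coding exons, 0 of 8 in the other variants outside the segments and 3 of 45 in the segments. Both trinucleotides were picked after the counts were seen, so these shares are descriptions. The coding-exon shares count every T or C position, whereas none of the 163 variants is synonymous (leaving the amino acid unchanged). The shares are therefore not of like sites. The variants of both kinds that all 3 culture libraries called are printed on the strand where the changed base is a pyrimidine, in capitals at position 11, to show what the surroundings share.
Lmtk2 Q944H, chr5:144175285-144175305, minus strand: agaggctatcTtggctggtag
Gp2 L383V, chr7:119450156-119450176, minus strand: gggtgtcctcTtaaatagagg
Olfr943 K239N, chr9:39184886-39184906, minus strand: tactgaaggcTttagacctgc
Pxdn K1474T, chr12:30015553-30015573, minus strand: acactaaggcTtttcctctgc
Cep162, chr9:87231963-87231983, plus strand: gtctgtcagcTtttaccggac
Ficd G120A, chr5:113738114-113738134, minus strand: ccctctcttgCcttgacgctt
Epha2 A180P, chr4:141308782-141308802, minus strand: tcctggaaggCcaggtagaag
Cnp P178A, chr11:100576754-100576774, plus strand: gaagctgaagCccgggctgga
The substitution was T11G in the first 5 and C11G in the last 3. The Cep162 change lies in an intron at a splice region, and the other 7 lie in coding exons. Gp2 encodes a membrane protein of pancreatic acinar granules, at 0.10, 0.162 and 0.0921 in culture 1, 2 and 3. Epha2, a receptor tyrosine kinase for ephrins, was at 0.0638, 0.0734 and 0.0585. None of the 8 was called in a tumour. Of all 20 T to G changes at CTT, 1 was called in a tumour (Psg28), and of the 11 C to G changes at GCC, 0 were. The share was 18.4% over all 163 variants and 10.7% over those without a similar place elsewhere in the genome. Such a place was found for 4 of the 20 and 0 of the 11. These small counts were not tested against the shares.

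Part of the variants lie in sequence with near copies. Of the 163, 41 (25.2%) have at least 1 other place in the genome that matches the 151 bases around them over at least 120 bases at 95% identity or more, against 7 of 46 (15.2%) of the other variants outside the segments and 93 of 391 (23.8%) in the segments. Variants with such a place were called in a tumour in 17 of 41 cases (41.5%, 27.8 to 56.6) and those without in 13 of 122 (10.7%, 6.33 to 17.4). A spleen fraction above 0 was recorded for 10 of the 41 and 8 of the 122. Whether reads from the other places gave these calls was not tested. T to G made up 14 of the 40 single-base variants with a similar place and 36 of the 118 without, and CTT held 16 of the 36.

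Only 5 genes had more than 1 of the 163 variants, and together they held 17. The gene models Gm21738, Gm10801 and Gm10717 had 6, 4 and 3, at culture means of 0.0368 to 0.118, and all but F102S of Gm10801 have similar places, up to 69 for Gm10717. The 3 changes of Gm10717 (L37Q, I43M and R45H) lie within 25 bases, and each has a spleen fraction above 0. Prss40, a serine protease of testis, had V104L and N102T within 6 bases, at 0.0849 and 0.0690 in culture 1 and at 0.154 and 0.156 in culture 3. Both lacked a call in culture 2. Muc4 had T736K beside H600R.

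By effect, 150 of the 163 variants were missense (92.0%), 9 were stop, frameshift, splice-acceptor or start changes and 4 were splice-region changes in introns. None was synonymous. The study does not state whether its calls were chosen by effect. The 163 are therefore not known to be all low-frequency variants of the exome, and these shares describe the listed calls only. The stop changes were Lgmn W395* (a lysosomal protease, 0.0394 in culture 1), Kalrn W1457* (a guanine nucleotide exchange factor, 0.0541 in culture 2) and Adam6b K628* (a testis protein of the ADAM family, 0.0947 in culture 2 and 0.114 in culture 3). Frameshifts were Klhdc1 Y210fs (0.109 in culture 1), Dao N270fs (D-amino acid oxidase, 0.0370 in culture 1 and 0.0493 in culture 3), Ccdc175 E82fs (0.0519 in culture 2), Kctd8 N427fs (0.0323 in culture 2) and Rps2-ps6 A82fs. The Dao, Ccdc175 and Kctd8 changes are deletions of 7 bases each, and those of Dao and Ccdc175 reach a splice acceptor. Ndn, an imprinted gene that encodes necdin, had its start codon changed (M1?) at 0.107, 0.119 and 0.119 in culture. Of these 9, Rps2-ps6 was called in a tumour.

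Of the listed genes of known cancer and immune pathways, 1 was among the 151. That share was close to the share of all genes, but it rests on a single gene. Of the 153 genes on 6 lists, 1 (0.654%) was a member, against 143 of 21924 protein-coding gene symbols (0.652%), and 2 of the 153 had other variants outside the segments. Of 30 pancreatic cancer and tumour suppressor genes, 1 was a member, and 0 of 25 RAS, MAPK and PI3K genes, 0 of 25 chromatin regulators, 0 of 26 DNA repair and replication genes, 0 of 22 antigen presentation and interferon genes and 0 of 25 TGF-beta, WNT, Hedgehog and NOTCH genes were. The member was Myc, a transcription factor of cell growth. Myc T373A, a T to C change in its coding exon on chromosome 15 at 61989660, was at 0.145 in culture 2 and 0.0676 in culture 3. It was not called in culture 1 or in any tumour, and its surroundings have no similar place.

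By family, olfactory receptors made up 15 of the 151 genes (9.93%, 6.11 to 15.7), against 5.17% of 21951 protein-coding genes in the annotation, a base that leaves out pseudogenes such as Rps2-ps6. These were Olfr1037, Olfr1126, Olfr118, Olfr1264, Olfr1297, Olfr1302, Olfr1442, Olfr251, Olfr325, Olfr347, Olfr418-ps1, Olfr706, Olfr742, Olfr943 and Olfr965. Their 15 variants had culture means of 0.0415 to 0.128, and 11 were T to G changes. Tumour calls were made for 3 (Olfr742, Olfr1297 and Olfr251), each in desert 1, the tumour with the most calls over all variants, and 6 have a similar place. Vomeronasal receptors (Vmn1r202, Vmn1r62, Vmn2r30 and Vmn2r83) and zinc finger genes (Zfp407, Zfp429, Zfp775 and Zscan20) had 4 each, or 2.65% of the 151, against 1.51% and 2.13% in the annotation, with none called in a tumour. Unnamed gene models were 13 (8.61% against 9.51%) and held 23 variants, of which 8 were called in a tumour and 19 have a similar place. Beside those above they were C130026I21Rik, Gm10718, Gm4847, Gm5218, Gm5771 and Gm7361. Muc4, the keratin Krt78 and the carrier Slc25a39 were the only ones of the 151 in their families, and protocadherins and histones had 0.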

How the data were processed

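The labels describe exome libraries, 3 of cultured KPP-eGFP cells, 5 of STAMP tumours and 3 of spleen. The authors mapped reads to GRCm38 with BWA, used GATK best practices for realignment and duplicates, and ran Strelka with spleen as matched normal. Versions of these tools: not given in the sources used here. Per the labels, the extraction text describes RNA, and how DNA was extracted is not given there. Among the deposited values, use was made of the fraction of reads with the variant in each library, the same fraction in spleen and the tier score of each call (1 or 2), as the authors' caller gave it. Of 11 columns per sample, 7 were not used, of which 2 hold values. The spleens have no calls of their own. Read depth is unknown (0 values), so single frequencies have no interval, and Wilson 95% intervals cover shares of variants only.

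Members and gene lists were chosen with earlier results of these data known. Named are members called in a tumour, with a stop, frameshift, splice-site or start change, or sharing a gene. Also named are the 10 highest and 5 lowest called in all 3 culture libraries. So are members of 6 gene lists and of symbol families, and the variants nearest the limit. Members of trinucleotide groups were chosen after their values were seen. Sequences were read from GRCm38 and features from GENCODE. Reference bases of all 621 variants matched. Similar places were found with BLAST 2.17.0. Scaled frequencies were fitted with limma 3.58.1 in R 4.3.3 (eBayes with trend, threshold 0.05 on the Benjamini-Hochberg adjusted p, 3 phenotypes in 1 fit of 5 tumours, the lone desert tumour assumed to vary like the others), and the fit was tested on simulated data. Python 3.11.15, numpy 2.4.6, scipy 1.17.1 and pandas 2.3.3 did the rest. Alternatives were other limits and member rules, single-base or tier 1 calls, repeated sequence left out, other scalings and fits, a replicate block and each library left out.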

Additional observations from a re-analysis of the deposited data

How the results depend on the processing

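Of 221 alternative values, 204 kept the direction and side of the threshold, or stayed within the main interval, spread or 1.5-fold range. No limit between 0.179 and 0.250 changes the members, and a limit of 0.30 added 2. Shares of T to G, C to T and C to A, and of CTT and GCC, stayed within their intervals under every alternative run. The share called in a tumour was 18.4% and fell to 10.7% without variants that have a similar place elsewhere, an alternative chosen after seeing the data. It ran from 11.7% (without desert 1) to 19.3% with 1 library left out. The share called in 1 culture library ran from 54.7% to 67.2% with 1 culture library left out, since 2 libraries then remain. R squared was 0.991 with a lower limit of 0.05. The difference between immune-inflamed and immune-excluded shares ran from -3.68 to 1.23 percentage points with 1 library left out, and turned without inflamed 2. The Jaccard difference turned to -0.00640 with tier 1 calls only and to -0.0631 for variants of at least 2 culture libraries, and ran from -0.0481 to 0.148 with 1 library left out.

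Without scaling, limma called 20 of 258 variants for desert 1, all higher there, and Sfi1 turned to 0.00191. With the first number of the tumour title as a replicate block, limma called 0 variants in each comparison. The number is not known to mark pairs, and the deviations of inflamed 1 and excluded 1 correlated at -0.183. With the numbers crossed, chosen after seeing this, 2 were called in each comparison. The cause of these changes was not tested. Unknown depth limits what a missing call means.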
